A study of Homo sapiens with 4 samples.

Results

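The clustered protocadherin genes were taken as the protein-coding genes of chromosome 5 (GRCh37) whose symbols start with PCDHA, PCDHB or PCDHG, with pseudogenes left out. The annotation held 53 of them, and 51 had an Ensembl identifier in the count tables, of 57820 genes counted in all. These were 15 PCDHA, 15 PCDHB and 21 PCDHG genes. PCDHB16 and PCDHGB5 had no matching identifier and were not analysed here. Transcription had been measured by RNA-seq of polyadenylated RNA in 4 libraries of HAP1, a nearly haploid human cell line, grown without treatment. In the dKO group (2 libraries) RING1A and RING1B, which carry the ubiquitin ligase activity of Polycomb repressive complex PRC1, had been inactivated. The tKO group (2 libraries) came from dKO cells in which BAP1, the enzyme that removes this ubiquitin from histone H2A, had been mutated too. All 4 libraries were thus labelled as RING1A and RING1B knockouts, and the comparison of tKO with dKO asks what loss of BAP1 changes on that background. Knockouts were selected clones, and the study's methods describe the 2 libraries of a condition as independent biological replicates.

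Clustered protocadherins are cell adhesion proteins with extracellular cadherin repeats, best known from neurons, where each cell uses its own combination of isoforms. The genes lie in 3 neighbouring clusters. In PCDHA and PCDHG each gene has its own first exon and promoter, which is spliced to constant exons shared by the whole cluster. PCDHB genes have a single exon each and no shared part. Most isoforms are picked stochastically, in a process that depends on CTCF, cohesin and promoter DNA methylation, while the C-type isoforms (PCDHAC1, PCDHAC2, PCDHGC3, PCDHGC4 and PCDHGC5) follow other rules.

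Libraries held between 16054590 and 18455410 counts in genes, and the dKO totals lay above the tKO totals. BAP1 had 2046 and 2010 counts in dKO and 158 and 107 in tKO, which goes with the labels. RING1 (RING1A) had 12 and 17 counts in dKO and 12 and 13 in tKO. RNF2 (RING1B) still had 1421 and 1561 counts in dKO and 1262 and 1102 in tKO, so its transcript does not check the RING1B label. The tKO libraries were further apart than the dKO libraries, with 914 of 15136 tested genes more than 2-fold apart in tKO and 227 in dKO. For this reason each tKO library is also given by itself. Counts are reads that fell in the exons of 1 gene. A read in the shared exons of PCDHA or PCDHG overlaps several genes and was not assigned, so counts of these members come from their own first exons. Levels between genes were compared as counts scaled to a fixed library total (CPM) per kb of exon sequence that belonged to 1 gene alone.

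Most members were near or below the depth of these libraries. With 0.5 CPM required in at least 2 libraries, 18 members were tested (3 PCDHA, 10 PCDHB and 5 PCDHG) and 33 were not. PCDHAC1 and PCDHB11 passed this filter only through the tKO libraries and PCDHGB7 only through the dKO libraries. PCDHB1, PCDHGA8 and PCDHGC5 had 0 counts in all 4 libraries, where 3 counts correspond to 0.163 to 0.186 CPM. Under 10 counts in every library were found for 12 PCDHA, 4 PCDHB and 14 PCDHG genes. PCDHB held most of the signal, with 67.6% and 66.4% of the counts of all members in dKO and 64.0% and 69.3% in tKO 1 and tKO 2.

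**Figure D1:**
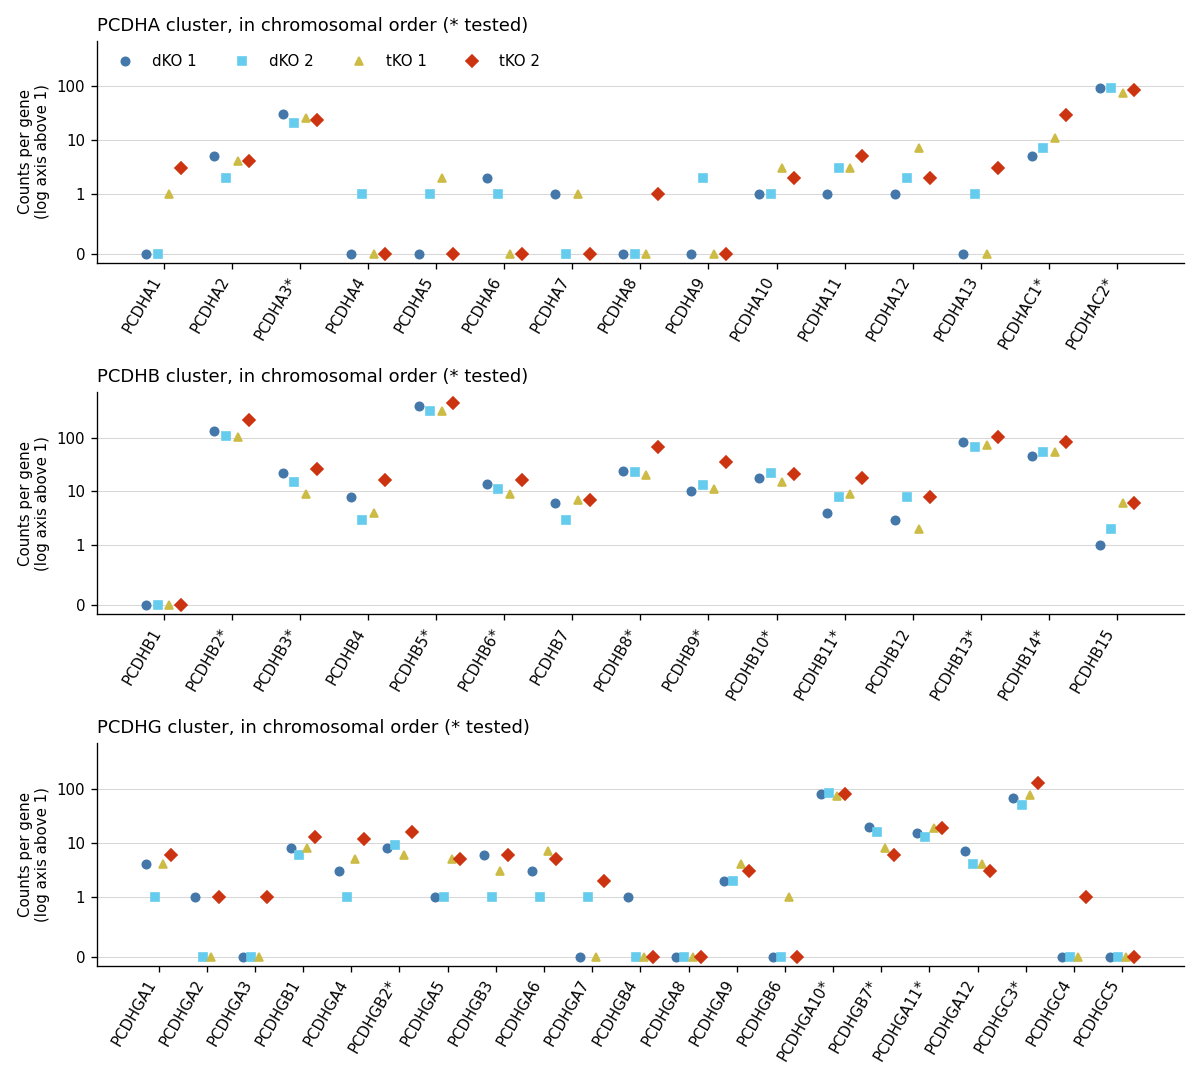
Counts of each of the 51 genes (vertical axis, counts per gene, log axis above 1) in chromosomal order along the horizontal axis for each cluster, with 1 symbol per library. PCDHB5 stood highest with 305 to 443 counts, and in the PCDHB panel tKO 2 had more counts than tKO 1 for all genes above 0 except PCDHB7 and PCDHB15, where both had 7 and 6 counts.

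A few isoforms carried most of the counts of each cluster. PCDHB5 (chr5:140514788-140518197) had the highest level per length of all members, with a mean of 6.23 CPM per kb, followed by PCDHB2 at 1.98 CPM per kb. PCDHAC2 at 1.50 and PCDHGC3 at 1.49 CPM per kb came next, and both are C-type isoforms. PCDHGA10 had 1.04 and PCDHB13 0.942 CPM per kb. Among the 13 alternate PCDHA isoforms, which exclude the C-type pair, PCDHA3 was the only one tested, with a mean of 0.368 CPM per kb. The 13 together had 42 and 35 counts in dKO and 47 and 44 in tKO.

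Summed over its genes, each cluster was highest in tKO 2. PCDHB had 762 and 642 counts in dKO, 637 in tKO 1 and 1057 in tKO 2. In CPM this was 38.5 ± 4.36 (SD, n = 2) in dKO, 39.2 in tKO 1 and 65.4 in tKO 2. Against the dKO mean taken on the log2 scale, tKO 2 stood at 1.71-fold and tKO 1 at 1.02-fold, between the dKO libraries. The folds of PCDHG and PCDHA that follow were taken likewise. PCDHG had 227 and 192 counts in dKO, 225 in tKO 1 and 311 in tKO 2, or 1.21-fold and 1.68-fold the dKO mean in CPM. PCDHA had 138 and 133 counts in dKO, 133 in tKO 1 and 157 in tKO 2, or 1.10-fold and 1.31-fold. On the log2 scale the genotype means differed by 0.26 for PCDHA, 0.40 for PCDHB and 0.51 for PCDHG. With tKO 1 left out these were 0.39, 0.77 and 0.75, and with tKO 2 left out 0.14, 0.03 and 0.28. Sums over members were given no test.

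**Figure D2:**
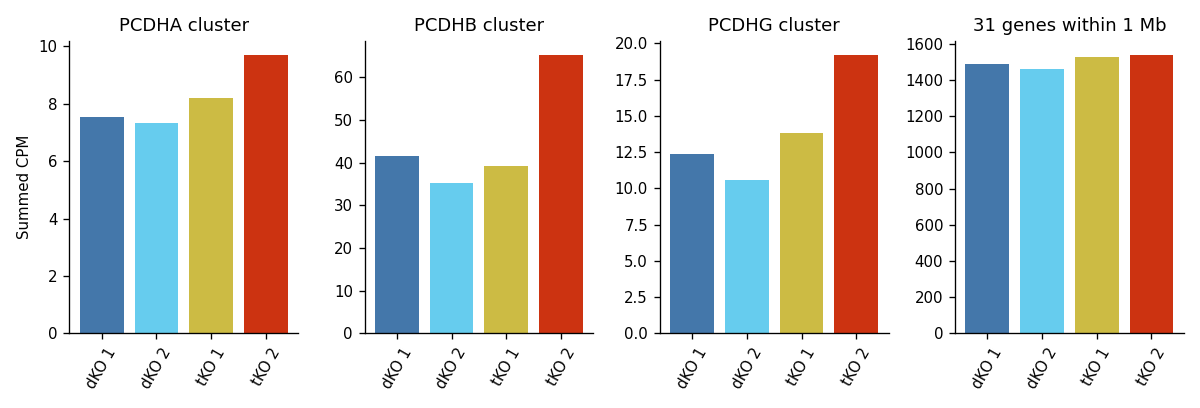
Summed CPM of each cluster and of the 31 tested non-member genes within 1 Mb of the clusters, with 1 bar per library. The tKO 2 bar stands above the other 3 in each cluster, while the neighbouring genes sum to between 1459 and 1541 CPM in all libraries.

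The higher PCDHB sum in tKO 2 did not rest on the leading gene. Without PCDHB5 the cluster had 370 and 337 counts in dKO, 322 in tKO 1 and 614 in tKO 2. In CPM tKO 2 was then 1.96-fold the arithmetic mean of the dKO libraries. The 5 untested PCDHB genes together had 18 and 16 counts in dKO, 19 in tKO 1 and 37 in tKO 2. Of the 14 PCDHB genes with any count, 14 were highest in tKO 2 in CPM, under TMM, RLE size factors, library totals and unstranded counts alike. Among the 26082 genes with a count in any library, this was true of 31.7%. For PCDHB7 and PCDHB15 the order of the tKO libraries came from scaling alone, since their counts were equal. PCDHG was highest in tKO 2 for 13 of 19 genes with counts and PCDHA for 6 of 15, many of them on fewer than 10 counts. In tKO 1, 0 PCDHB, 3 PCDHG and 4 PCDHA genes were highest, against 26.4% of all genes with a count.

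No clustered protocadherin gene was differentially expressed (DE, adjusted p below 0.05 and absolute log2 fold change above 1) between tKO and dKO by limma, where 0.0132% of the 15136 tested genes were DE. The edgeR quasi-likelihood test, DESeq2 and limma-voom also called 0 members. At an unadjusted p below 0.05, 2 of 18 members were higher in tKO (background 1.4%) and 1 was lower (background 2.15%). Both tKO libraries lay above both dKO libraries for 5 members (15.8% of tested genes) and below them for 1 (15.9%). The 5 were PCDHAC1, PCDHB11, PCDHB14, PCDHGA11 and PCDHGC3, and the 1 was PCDHGB7. PCDHAC1, PCDHB11 and PCDHGB7 count for little here, since each had passed the filter only through the genotype in which it was higher. The count of 0 DE members depended on tKO 1, although PCDHAC1, tested only on account of its tKO levels, was among the members called without tKO 1. A fit without that library, in which the dKO pair alone gave the spread, called 4 members DE and 3.25% of all tested genes, and no other library left out gave a call.

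PCDHAC1, a C-type isoform of PCDHA, had 5 and 7 counts in dKO, 11 in tKO 1 and 29 in tKO 2. Its log2 fold change was 1.48 ± 0.52 (SE), given as a description because the gene was tested only on account of its tKO levels. PCDHGC3, the C-type isoform of PCDHG that is also used outside the nervous system, had 68 and 51 counts in dKO, 78 in tKO 1 and 130 in tKO 2. Its log2 fold change was 0.92 ± 0.32, with an unadjusted limma p of 0.0251 and an adjusted p of 0.996. PCDHGB7, a stochastically chosen PCDHG isoform, had 20 and 16 counts in dKO, 8 in tKO 1 and 6 in tKO 2. Its log2 fold change of -1.01 ± 0.39 is likewise a description, since the gene was tested only on account of its dKO levels. All 3 had an adjusted limma p of 0.996.

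Each tKO library was then set against the dKO pair in a fit with 3 groups, chosen after the values were known. The spread in this fit came from the dKO pair and the mean-variance trend, and a single tKO library was assumed to vary likewise. Because the tKO libraries lay further apart than the dKO libraries, its p-values may be too small. In tKO 2, 6 of 18 members were higher at an adjusted limma p below 0.05 and 0 were lower. The background was 2.25% of tested genes higher (2.98% among the 6302 genes in the level range of these members) and 5.85% lower. One of the 6 was PCDHAC1, which had entered the test through its tKO levels, and the other 5 were above the filter in all 4 libraries. The edgeR quasi-likelihood test called the same 6 members, with a background of 2.35%. PCDHB8, PCDHB9 and PCDHGC3, and PCDHAC1 with the same reservation, also passed the fold change threshold and were DE (background 0.965%). In tKO 1, 0 members were higher (background 0.832%) and 0 were lower (2.03%). The median log2 ratio of tested members to the dKO mean was 0.63 in tKO 2 and 0.01 in tKO 1, beside medians of 0.01 and 0.00 over all tested genes. By cluster the tKO 2 median was 0.75 for PCDHB, 0.55 for PCDHG and 0.08 for PCDHA. These medians include PCDHB11 and PCDHAC1, which had passed the filter only through tKO, and PCDHGB7, which had passed only through dKO.

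**Figure D3:**
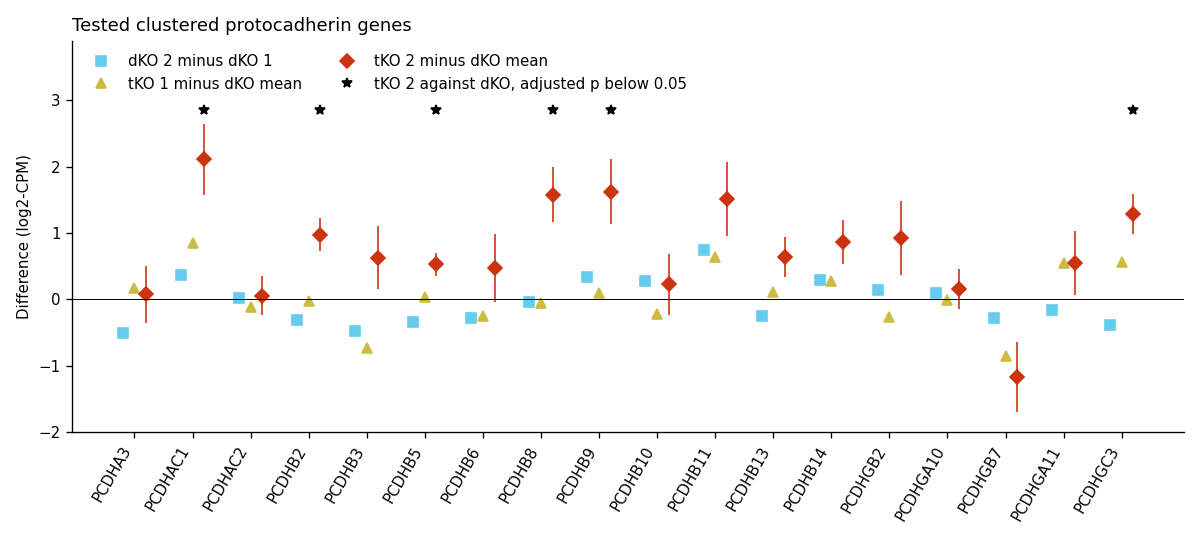
Difference in log2-CPM for the 18 tested genes, with squares for dKO 2 minus dKO 1 and triangles for tKO 1 minus the dKO mean. Diamonds show tKO 2 minus the dKO mean with its standard error from the limma fit with 3 groups. PCDHB11 had passed the filter only through tKO, and PCDHGB7 only through dKO. Stars mark the 6 genes with an adjusted p below 0.05 in tKO 2, of which PCDHAC1 had passed the filter only through tKO, and the 10 PCDHB diamonds all lie above 0 while the triangles scatter around it.

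PCDHB8 (chr5:140557371-140560120) had 24 and 23 counts in dKO, 20 in tKO 1 and 66 in tKO 2. Only tKO 2 stood apart, with a log2 difference of 1.58 ± 0.41 from dKO (limma adjusted p = 0.00241). PCDHB2 (chr5:140474191-140478287) had 133 and 106 counts in dKO, 104 in tKO 1 and 209 in tKO 2. It was higher in tKO 2 by 0.98 ± 0.25 than in dKO (limma adjusted p = 0.00252). Between the tKO libraries, 1 against 1, the log2 difference was 1.64 for PCDHB8 and 1.00 for PCDHB2, with no replicate check.

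PCDHB9 (chr5:140566701-140571114) had 10 and 13 counts in dKO, 11 in tKO 1 and 35 in tKO 2, a log2 difference of 1.62 ± 0.49 between tKO 2 and dKO (limma adjusted p = 0.0154). PCDHB5 had 392 and 305 counts in dKO, 315 in tKO 1 and 443 in tKO 2, and its rise in tKO 2 was smaller at 0.53 ± 0.18 (limma adjusted p = 0.0361). Outside PCDHB, PCDHGC3 was higher in tKO 2 than in dKO by 1.29 ± 0.30 (limma adjusted p = 0.0006). PCDHAC1 differed by 2.11 ± 0.54, subject to the reservation on its filter. PCDHB11 had 4 and 8 counts in dKO, 9 in tKO 1 and 18 in tKO 2. Its difference of 1.51 ± 0.56 is a description, since the gene was tested only on account of its tKO levels. PCDHB13 and PCDHB14 were at 0.64 and 0.87, with adjusted limma p of 0.221 and 0.0913. PCDHGB7, tested only on account of its dKO levels, was at -1.17 ± 0.53 in tKO 2. PCDHAC2 and PCDHGA10, which had the most counts of PCDHA and PCDHG in dKO, were at 0.06 and 0.16 in tKO 2.

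Near-identical copies can lose reads, since only uniquely mapped reads were counted. Of 100-base windows in the exon sequence owned by each tested PCDHB gene, between 72.8% (PCDHB8) and 96.8% (PCDHB5) occurred once in the region of the clusters. The share was 88.5% for PCDHB2, 88.9% for PCDHB9 and 85.0% for PCDHB13. For PCDHAC1, PCDHAC2 and PCDHGC3 it was 100%. Only exact matches were counted as copies here, whereas the mapping had allowed up to 6 mismatches. How many reads were lost to copies was not tested.

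The promoters of the PCDHB genes are shown because nearly all of those found share a short word. Whether such a word bears on the levels in any library was not tested. RefSeq windows from 250 bases before to 50 bases after the gene start (GRCh38.p14) were found for 45 of the 51 genes. In each cluster the word of 8 letters present in the windows of the most genes was taken, the first by alphabet where words tied. It was then searched on both strands, so the word was chosen from these sequences. In PCDHB it was GGTGGCGC, found in 12 of 13 genes with a window, in 0 of 13 PCDHA and 0 of 19 PCDHG genes, and in 2.23% of 35116 windows of all genes. PCDHB1, which had 0 counts, was the gene without it, and PCDHB6 and PCDHB11 had no window. Stretches of the plus strand are given below for the PCDHB genes called in tKO 2 and for PCDHB13 and PCDHB14, with the shared word in capitals.
PCDHB2: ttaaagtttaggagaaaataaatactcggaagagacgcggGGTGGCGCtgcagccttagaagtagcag
PCDHB5: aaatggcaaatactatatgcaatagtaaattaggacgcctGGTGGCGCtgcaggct
PCDHB8: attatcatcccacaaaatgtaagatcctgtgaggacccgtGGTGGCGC
PCDHB9: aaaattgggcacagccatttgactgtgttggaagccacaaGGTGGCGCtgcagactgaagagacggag
PCDHB13: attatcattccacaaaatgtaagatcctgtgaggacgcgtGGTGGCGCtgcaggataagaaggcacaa
PCDHB14: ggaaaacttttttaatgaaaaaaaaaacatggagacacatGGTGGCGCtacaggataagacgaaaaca
The stretches lie at chr5:141094515-141094582 (PCDHB2), chr5:141135150-141135205 (PCDHB5), chr5:141177748-141177795 (PCDHB8), chr5:141187045-141187112 (PCDHB9), chr5:141213836-141213903 (PCDHB13) and chr5:141223234-141223301 (PCDHB14).

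PCDHB8 and PCDHB13 differed at 2 of the 48 bases that end with the word, whereas PCDHB8 and the other PCDHB stretches differed at 16 to 29. The word began at -2 from the gene start in PCDHB8 and at -43 in PCDHB13, and bases after the word were not compared. PCDHB8 had a log2 difference of 1.58 in tKO 2 and PCDHB13 one of 0.64. Whether those 2 differences depart from each other was not tested. The word of PCDHG was GCCGCTGT, in 10 of 19 genes with a window and in 1.63% of all windows. The tested genes PCDHGB2, PCDHGB7 and PCDHGA11 lacked it, and PCDHGA8, with 0 counts in all 4 libraries, held it. Both leading isoforms, PCDHGA10 and PCDHGC3, held it too.
PCDHGA10: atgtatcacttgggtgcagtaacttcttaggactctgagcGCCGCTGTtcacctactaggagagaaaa
PCDHGC3: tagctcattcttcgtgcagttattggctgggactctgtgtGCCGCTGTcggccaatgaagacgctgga
These 2 stretches lie at chr5:141412905-141412972 and chr5:141475854-141475921 and are shown with the word in capitals. PCDHGA10 had 0.977 and 1.05 CPM per kb in dKO, 1.01 in tKO 1 and 1.14 in tKO 2. PCDHGC3 had 1.14 and 0.864 CPM per kb in dKO, 1.48 in tKO 1 and 2.47 in tKO 2. The word of PCDHA was ATGTCGCT, in 9 of 13 genes with a window and in 0.234% of all windows. PCDHAC1 and PCDHAC2, the only tested PCDHA genes with a window, lacked it. The 4 letters CGCT, with which the PCDHA word ends, were in 12 of 13 PCDHA, 13 of 13 PCDHB and 19 of 19 PCDHG genes and in 70% of all windows.

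Isoform choice was described as the share of each gene among the counts of its cluster, with a 95% Wilson interval that covers counting error only. PCDHAC2 led PCDHA in all libraries, with 65.9% (57.7 to 73.3%) and 68.4% (60.1 to 75.7%) in dKO, 56.4% (47.9 to 64.5%) in tKO 1 and 53.5% (45.7 to 61.1%) in tKO 2. PCDHA3 was second in dKO and tKO 1. In tKO 2 PCDHAC1 took that place with 18.5% (13.2 to 25.3%), against 3.62% (1.56 to 8.20%) and 5.26% (2.57 to 10.5%) in dKO and 8.27% (4.68 to 14.2%) in tKO 1. The PCDHAC1 interval of tKO 2 thus lay above both dKO intervals and overlapped that of tKO 1.

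By share of counts, PCDHG was the cluster whose leading isoform differed between genotypes. PCDHGA10 led in dKO with 35.2% (29.3 to 41.7%) and 44.3% (37.4 to 51.3%), and PCDHGC3 led in tKO 1 with 34.7% (28.7 to 41.1%) and in tKO 2 with 41.8% (36.5 to 47.3%). In tKO 1 the lead was narrow, with PCDHGA10 at 32.4%. Shares are not corrected for length. Per kb, PCDHGC3 led in dKO 1 too, with 1.14 CPM per kb against 0.977 for PCDHGA10. In dKO 2 PCDHGA10 led per kb, with 1.05 against 0.864, so by this measure the leader did not split by genotype. PCDHGC3 had 30.0% and 26.6% in dKO, and its interval in dKO 1 reached 36.2%, so that only tKO 2 lay clear of both dKO intervals. PCDHGB7 was among the leading 3 in dKO only, with 8.81% and 8.33% in dKO and 3.56% and 1.93% in tKO 1 and tKO 2.

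PCDHB kept its order of PCDHB5, PCDHB2 and PCDHB13 in all 4 libraries. PCDHB5 had 51.4% (47.9 to 55.0%) and 47.5% (43.7 to 51.4%) of the cluster in dKO, 49.5% (45.6 to 53.3%) in tKO 1 and 41.9% (39.0 to 44.9%) in tKO 2. PCDHB8 had 3.15% (2.13 to 4.64%) and 3.58% (2.40 to 5.32%) in dKO, 3.14% in tKO 1 and 6.24% (4.94 to 7.87%) in tKO 2. For both genes the tKO 2 interval lay clear of that of dKO 1 and overlapped that of dKO 2. The share of PCDHB2 was between 16.3% and 19.8%, and the intervals of all 4 libraries overlapped.

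**Figure D4:**
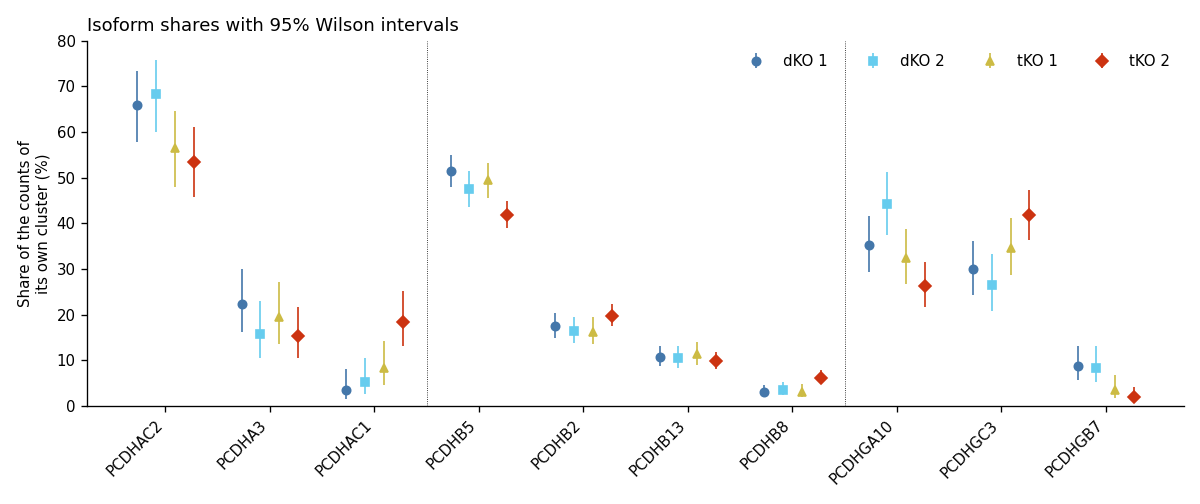
Share of the counts of its own cluster (vertical axis, percent) for leading isoforms of PCDHA, PCDHB and PCDHG, separated by dotted lines, with bars for 95% Wilson intervals and 1 symbol per library. PCDHAC1 and PCDHGC3 stand highest in tKO 2, at 18.5% and 41.8%, and PCDHB5 lowest there, at 41.9%.

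The distance between 2 sets of shares was taken as the percentage points that would have to move from some isoforms to others. Between the dKO libraries it was 10.2 points for PCDHA, 6.63 for PCDHB and 11.1 for PCDHG. Between the group means it was 16.2, 5.90 and 17.9 points. These are distances of averages and cannot be set against those of single libraries. For PCDHB, tKO 1 was 5.54 points from dKO 1 and 4.24 from dKO 2, and tKO 2 was 11.7 and 9.29 points from them. Counting error adds to such distances, so clusters with unlike counts cannot be ranked by them. tKO 1 was 13.4, 3.65 and 15.5 points from the dKO mean and tKO 2 was 20.5, 9.79 and 22.5 points from it. Between the tKO libraries the distance was 14.8, 10.9 and 14.2 points. With 2 libraries against 2 no permutation test could reach significance, and the distances were given no test. For PCDHA the distance of the group means fell to 1.90 points when the genes with at least 10 counts in every library were kept, which removes PCDHAC1.

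The genes around the clusters lay close to dKO in both tKO libraries. The 31 tested genes that start within 1 Mb of the clusters had log2 ratios to dKO between -0.25 and 0.34 in tKO 2 and between -0.37 and 0.25 in tKO 1, and 0 were DE by limma. At an unadjusted p below 0.05 there were 0 of 31, near the 1.4% higher and 2.15% lower over all tested genes. TAF7, which lies between the PCDHB and PCDHG clusters and encodes a subunit of TFIID, had 1974 and 2053 counts in dKO, 1891 in tKO 1 and 2024 in tKO 2, a log2 ratio of 0.18 in tKO 2.

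Lists of genes tied to the biology of the clusters were read in the same fits. Of 11 CTCF and cohesin genes and 12 genes of silencing and DNA methylation, 0 were DE, 0 had an unadjusted p below 0.05, and 0 were called in either tKO library by limma. With 0.0132% of all tested genes DE and 1.4% higher and 2.15% lower at that p, lists of this size would hold few or no calls in any case. CTCF, the insulator protein that binds these promoters, had 2688 and 2245 counts in dKO and 2584 and 2223 in tKO. SMCHD1, a repressor of these clusters, had 4221 and 4117 counts in dKO and 4147 and 3469 in tKO. Of 13 genes for partners of the proteins, 0 were DE. ABI1, a WAVE complex subunit, had 1064 and 1017 counts in dKO, 487 in tKO 1 and 788 in tKO 2 with a log2 fold change of -0.58 ± 0.22, an unadjusted limma p of 0.0369 and an adjusted p of 0.996. It lies on the short arm of chromosome 10, where the median log2 ratio of 130 other tested genes was -0.97 in tKO 1 and -0.02 in tKO 2. BRK1, another WAVE subunit, had 1020 counts in tKO 2 against 2164 to 2231 elsewhere, with log2 ratios to dKO of 0.13 in tKO 1 and -0.95 in tKO 2. It lies on the short arm of chromosome 3, and whether other genes of that arm were lower too was not tested here.

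Of 7 tested non-clustered protocadherins, 0 were DE between genotypes, where 0.0132% of all tested genes were DE. Their median log2 ratio to dKO was -0.13 in tKO 1 and 0.17 in tKO 2. PCDH17, an adhesion protein of synapses, had 331 and 352 counts in dKO, 257 in tKO 1 and 502 in tKO 2. Its log2 ratio to dKO was -0.24 in tKO 1 and 0.73 in tKO 2, where the median of the tested clustered members was 0.63. A higher level in tKO 2 was thus not limited to the clustered genes. The other 6 non-clustered genes had log2 ratios in tKO 2 from -0.10 for PCDH11X to 0.51 for PCDH9.

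Neuronal markers were examined beside these genes, since neurons are the main users of the clusters. Their summed level was 28.5 and 29.0 CPM in dKO, 34.4 in tKO 1 and 28.1 in tKO 2, with NEUROD1 at 0 in all libraries. SYP had 108 and 103 counts in dKO, 138 in tKO 1 and 217 in tKO 2, with an unadjusted limma p of 0.0137 and an adjusted p of 0.996 between genotypes. In tKO 2 alone it was called higher. SYT1 had 2 to 5 counts in 3 libraries and 52 in tKO 2. SNAP25 and GAP43 were lower in tKO 2, with 61 and 93 counts against 107 to 281 in the other libraries. Their log2 ratios to dKO in tKO 2 were -0.83 and -1.23. TUBB3 had 31 and 31 counts in dKO, 18 in tKO 1 and 20 in tKO 2, and STMN2 had 7 and 7, 3 and 3. RBFOX3 had 4 and 5 counts in dKO, 5 in tKO 1 and 9 in tKO 2, and DCX had 0 and 0, 2 and 0. Of 7 haematopoietic markers, SPI1, ITGAM and GATA1 were at 0 in all libraries, PTPRC, CD33 and CD34 had 0 to 5 counts and KIT 741 to 1056. Of 4 epithelial markers, EPCAM was at 0, CDH1 had 0 to 2 counts, KRT8 8 to 21 and KRT18 299 to 411. The part of these markers in the tKO 2 values was not tested.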

How the data were processed

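RNA had been made into stranded libraries from polyadenylated transcripts. Per the labels and the study's methods, the authors trimmed reads with cutadapt (1.12) through Trim Galore (0.4.4), removed ribosomal reads with Bowtie (1.2) and mapped the rest to hg19 with STAR (2.5.2b). The deposited values were raw STAR counts of uniquely mapped reads per gene, not normalised or pooled, over GENCODE release 19. The column for the strand of the kit was used. The other strand took 4.01 to 4.24% of stranded gene reads.

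Symbols and GRCh37 positions came from GENCODE release 44 (lifted from its own build) by Ensembl identifier, leaving off the version. Genes above 0.5 CPM in at least 2 libraries were kept. Counts became log2-CPM (TMM, prior count 2, edgeR 4.0.16), which understates changes of low genes, and genotype was fitted in limma (3.58.1, R 4.3.3) with a mean-variance trend over all 15136 genes, with Benjamini-Hochberg adjustment. The fit was tested on simulated data. Samples were grouped by their labelled genotype, with 2 libraries each. Intervals are Wilson 95% (scipy 1.17.1).

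Members and lists were chosen with earlier results of these data known. Named were DE genes, the 3 highest per kb in each cluster, the C-type genes, tested genes beyond 1 (log2) in a tKO library, the 3 smallest p-values in each direction, CTCF, SMCHD1, BAP1 and listed genes at an unadjusted p below 0.05. Other genes, among them TAF7, PCDH17, BRK1, PCDHB14 and single markers, were named after their values were seen. CYFIP1 and PCDH20 were listed but not analysed here. The replicate numbers were not taken to pair the libraries (correlation of deviations 0.0581). Alternatives were other tests (edgeR quasi-likelihood, DESeq2 1.42.0, limma-voom, no trend), scalings, filters, strand, prior count, a replicate block, leaving out each library, and each tKO library as its own group. Intervals and floors cover counting error only.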

Additional observations from a re-analysis of the deposited data

How the results depend on the processing

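The count of 0 DE members between tKO and dKO held under the edgeR quasi-likelihood test, DESeq2, limma-voom and no trend. It also held under RLE size factors, library totals, no filter, unstranded counts and a prior count of 0.25. At CPM above 5 the count was 0 too, but of the named members only PCDHAC2, PCDHB2 and PCDHB5 were left to test. PCDHAC1, PCDHB8, PCDHB9 and PCDHGC3 could not be called at that filter. With the replicate number as a replicate block the count was also 0, but the samples shared only a number. Leaving out single libraries gave 0 to 4 DE members, with 4 only without tKO 1. With each tKO library as its own group, added after the data were seen, tKO 2 had 4 by limma and 4 by edgeR and tKO 1 had 0. PCDHAC1, tested only on account of its tKO levels, was among the members called in tKO 2 and without tKO 1. The PCDHA share distance was 1.90 points when members needed at least 10 counts in every library, against 16.2. PCDHB3 changed sign, from -0.051 to 0.0917 with edgeR, 0.0934 with DESeq2 and 0.0171 with unstranded counts. Over the libraries left out, log2 fold changes ran from -0.73 to 0.63 for PCDHB3, -0.12 to 0.38 for PCDHA3, -0.11 to 0.0573 for PCDHAC2, -0.0233 to 0.98 for PCDHB2, -0.0594 to 1.58 for PCDHB8, -0.0081 to 0.16 for PCDHGA10, 0.85 to 2.12 for PCDHAC1, 0.56 to 1.29 for PCDHGC3, 0.10 to 1.62 for PCDHB9 and 0.64 to 1.52 for PCDHB11. Share distances ran from 13.4 to 20.5 points for PCDHA, 3.65 to 9.79 for PCDHB and 15.4 to 22.5 for PCDHG. The cause of these changes was not tested. Among the fold changes of named members, 185 alternatives kept direction and call, 10 reversed direction and 4 gained a call, the latter all without tKO 1. The low counts limit every member but PCDHB5 and a few others.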
